A study of Homo sapiens with 22 samples.

Results

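The 34 genes described here encode the enzymes of glycolysis and proteins of the cellular response to low oxygen, and all 34 were found by symbol in both sets of gene tables, among 58870 genes in the siRNA tables and 57820 in the actinomycin D tables. They comprise 16 glycolytic enzymes, 2 glucose transporters, 2 PFKFB enzymes, the transcription factor subunit HIF1A with 2 oxygen sensors, and 11 further hypoxia targets. HCT116 and LS180 are human colorectal cancer cell lines, and RNA was sequenced from whole cultures. In LS180, 2 libraries came from cells given siRNA against STAU1 (siSTAU1) and 2 from cells given control siRNA (siCTRL), in a pair of 72 h periods each, from poly(A)-selected RNA. STAU1 encodes Staufen1, a protein that binds double-stranded stretches of RNA and takes part in mRNA decay. In a separate experiment on total RNA, HCT116 and LS180 cells without any siRNA named in the labels received actinomycin D, an inhibitor of transcription, at 5 ug/ml for 0, 2 and 4 h, with 3 libraries for each line and time. The labels do not say whether libraries of a group were separate cultures, so every p-value measures the spread between these libraries, which may be technical. The oxygen level of the cultures was not given in the labels.

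Glycolysis converts glucose to pyruvate and then lactate, and cancer cells often use it even when oxygen is present. When oxygen is available, prolyl hydroxylases such as EGLN1 and EGLN3 mark the protein of HIF1A for destruction; when oxygen is scarce, the protein persists and binds DNA at a short motif to switch on many glycolytic genes together with genes such as VEGFA, which drives vessel growth. PFKFB3 makes fructose 2,6-bisphosphate, the strongest activator of phosphofructokinase, so it stands between the hypoxia response and the glycolytic enzymes. The mRNAs of growth factors and regulators often carry AU-rich elements in their 3′ untranslated regions that shorten their life, while mRNAs of metabolic enzymes are usually long-lived.

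The 3′ untranslated windows printed first hold the nonamer TTATTTATT, a core AU-rich motif. They are from VEGFA and PFKFB3, which fell after transcription was blocked, and from HIF1A and ENO2, described below. Capitals mark the nonamer, and each window lies on the plus strand of GRCh38 as annotated in GENCODE 29, at chr6:43786286-43786314 for VEGFA, chr10:6235286-6235314 for PFKFB3, chr14:61747346-61747374 for HIF1A and chr12:6923282-6923310 for the enolase gene ENO2.
VEGFA: ttgttatcatTTATTTATTggtgctactg
PFKFB3: gatgtgctatTTATTTATTtaatatgtat
HIF1A: atgcacctttTTATTTATTtatttttggc
ENO2: tttagtgtatTTATTTATTtatttatttt
Only the sense strand was searched, in the longest annotated 3′ untranslated region of each gene. The nonamer was present in 3 of the 16 glycolytic enzymes and in 4 of the 18 other members, against 9.09% of the 13653 tested genes with such a region. The pentamer ATTTA, which lies inside the nonamer, had a median density of 0.42 per kb in the enzymes, 2.31 per kb in the other members and 1.61 per kb in all tested genes. The untranslated region of VEGFA held 10 pentamers in 1925 bases, while that of PFKFB4 held 0 in 2063 bases. ENO2 and HIF1A carry the nonamer and were not called lower at any time after the block with TMM scaling (edgeR's correction of library size). HIF1A was called lower at 4 h with another scaling, given with its values. PFKM and HK1 also carry the nonamer and were called higher at 4 h in both lines with TMM scaling. With the other scaling neither was called higher, and HK1 was called lower in LS180. EGLN3, ADM, ANKRD37, PFKFB4 and SLC2A1 lack the nonamer and were called lower in both lines. These matches describe the sequence and show no binding.

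Promoters of 4 members are printed because they show the spacing of the motif ACGTG, the core to which HIF binds, in the aldolase gene that fell most with siSTAU1 (ALDOC), in PFKFB3, in the lactate dehydrogenase gene LDHA and in CA9, the member that differed most between the lines. Sequences are from RefSeq on GRCh38.p14 and run from 250 bases before to 50 bases after the annotated start: ALDOC at chr17:28576846-28577145 on the minus strand, and on the plus strand PFKFB3 (its second listed start) at chr10:6202682-6202981, LDHA at chr11:18394313-18394612 and CA9 at chr9:35673678-35673977. Capitals mark ACGTG or its reverse complement CACGT, and CACGTG, which reads the same on both strands, counts once on each.
ALDOC: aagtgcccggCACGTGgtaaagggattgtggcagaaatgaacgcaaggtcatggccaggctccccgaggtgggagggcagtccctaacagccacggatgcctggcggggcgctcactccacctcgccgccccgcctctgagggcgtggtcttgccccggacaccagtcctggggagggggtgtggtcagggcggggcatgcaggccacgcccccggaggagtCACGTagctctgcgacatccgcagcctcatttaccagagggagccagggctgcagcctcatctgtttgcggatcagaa
PFKFB3: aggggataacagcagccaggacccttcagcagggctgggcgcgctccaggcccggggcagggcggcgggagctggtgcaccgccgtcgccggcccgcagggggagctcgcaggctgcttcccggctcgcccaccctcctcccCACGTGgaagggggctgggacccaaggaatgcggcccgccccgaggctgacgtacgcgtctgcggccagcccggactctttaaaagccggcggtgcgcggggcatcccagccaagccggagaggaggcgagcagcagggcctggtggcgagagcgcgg
LDHA: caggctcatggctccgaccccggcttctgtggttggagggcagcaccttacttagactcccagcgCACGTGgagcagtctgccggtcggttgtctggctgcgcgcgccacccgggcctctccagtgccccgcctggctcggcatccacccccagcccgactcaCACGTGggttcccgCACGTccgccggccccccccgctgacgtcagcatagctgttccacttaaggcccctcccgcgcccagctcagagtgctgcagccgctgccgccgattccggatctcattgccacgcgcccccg
CA9: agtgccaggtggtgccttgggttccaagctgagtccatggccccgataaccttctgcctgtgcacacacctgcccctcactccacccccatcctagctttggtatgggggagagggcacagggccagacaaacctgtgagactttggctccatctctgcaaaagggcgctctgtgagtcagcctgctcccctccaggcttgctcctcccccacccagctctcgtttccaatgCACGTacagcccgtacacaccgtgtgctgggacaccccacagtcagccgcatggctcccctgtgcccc
LDHA held 5 matches, ALDOC 3, PFKFB3 2 and CA9 1. ACGTG on either strand was present in 22 of the 54 windows of members (40.7%), against 21.4% of all 35116 windows. Counted by gene, it was present in 18 of the 30 members with a window, against 24.9% of all 27305 genes with a window. These were 11 of 16 enzymes and 7 of 14 others. The motif was matched as letters only and says nothing of whether HIF was bound in these cells.

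Depth, in units of 1000000 expected counts, was 23.7 to 26.7 per siRNA library and 47.8 to 61.4 per actinomycin D library, and the 34 members took 1.68 to 1.84% and 1.12 to 1.78% of them. Of 9 epithelial markers, 6 exceeded 1 CPM (counts per 1000000 counts of a library) in every HCT116 library, with CDX1, VIL1 and LGALS4 near 0. All 9 did in every LS180 library. Marker values are CPM without further scaling, and all other CPM values were scaled by edgeR's TMM factors. STAU1 had 9.70 and 9.17 CPM in siSTAU1 libraries, against 144 and 141 CPM in siCTRL libraries, a log2 fold change of -3.92 (edgeR's quasi-likelihood test with Benjamini-Hochberg adjustment, adjusted p = 2.15e-12). Summed fibroblast markers were 15.1 to 16.5 CPM with siSTAU1 and 4.76 to 5.21 CPM with siCTRL, of which LUM had 9.10 to 10.6 and 1.26 to 1.76 CPM while COL1A2 was at 0. Summed immune markers were 93.0 to 94.5 and 227 to 239 CPM, nearly all from LYZ, with CD3E at 0. The part of these differences in the results was not tested, and in bulk RNA fewer cells of a type and less RNA per cell cannot be told apart. Library 1 of LS180 at 4 h differed from libraries 2 and 3, with PGK1 at 682, 927 and 958 CPM and VEGFA at 23.6, 12.7 and 13.2 CPM in the 3 libraries. Libraries 2 and 3 had the lowest TMM factors of the actinomycin D experiment, 0.864 and 0.812, against 1.004 in library 1. Short noncoding RNA took 22.4 and 25.6% of their counts, against 17.1% in library 1. Which of them were unusual was not tested. LS180 results at 4 h are given with and without library 1 where it matters, and those without it rest on libraries 2 and 3.

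In LS180 cells with siSTAU1, most listed genes that changed were lower, by small amounts, and ALDOC, EGLN3 and PFKFB3 had the lowest called values. Of the 33 members that passed the low-count filter, 3 were called higher and 19 lower, against 23.0% of all 14073 tested genes in each direction (edgeR adjusted p under 0.05), and 11 were not called. SLC2A3, the transporter GLUT3, had 0 counts in all 4 libraries and was the member left out by the filter. The median log2 fold change was -0.17 over the 33 members and 0.001 over all tested genes. By role, 2 enzymes were called higher and 9 of 16 lower (median -0.15), while among the other 17 members 1 was called higher and 10 lower (median -0.18).

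The furthest decrease was in ALDOC, an aldolase best known from brain. ALDOC had 22.3 and 21.1 CPM in siSTAU1 libraries, against 40.65 and 35.3 CPM in siCTRL libraries, a log2 fold change of -0.81 ± 0.079 (SE; edgeR adjusted p = 1.05e-05). Both knockdown libraries lay far below both controls. PFKFB3 had 33.0 and 33.8 CPM in siSTAU1 libraries and 46.3 and 46.5 CPM in siCTRL libraries, and its log2 fold change was -0.47 ± 0.059 (edgeR adjusted p = 6.09e-05). EGLN3, the oxygen sensor PHD3 and itself a HIF target, had 20.7 and 19.3 CPM with siSTAU1, against 28.4 and 31.0 CPM with siCTRL, with a log2 fold change of -0.57 ± 0.073 (edgeR adjusted p = 7.51e-05). In each of these 3 genes the replicates sat close together and the groups were well separated.

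VEGFA, the secreted factor that drives vessel growth, had 60.8 and 60.9 CPM in siSTAU1 libraries and 76.0 and 75.7 CPM in siCTRL libraries, a log2 fold change of -0.32 ± 0.046 (edgeR adjusted p = 0.000179). HK2, the inducible hexokinase of the first step, had 122 and 126 CPM with siSTAU1 and 148 and 152 CPM with siCTRL (log2 fold change -0.27). GPI, the isomerase of the second step, had 579 and 579 CPM with siSTAU1 and 705 and 718 CPM with siCTRL (log2 fold change -0.30). In all of them the groups did not overlap. BNIP3L, a receptor that targets mitochondria for removal, had 37.8 and 38.3 CPM with siSTAU1, against 53.8 and 49.9 CPM with siCTRL (log2 fold change -0.45). HIF1A, the factor itself, had 147 and 137 CPM with siSTAU1, against 155 and 156 CPM with siCTRL, and its log2 fold change was -0.13 ± 0.039 (edgeR adjusted p = 0.0163). The HIF1A difference was among the smallest called. It was not called by DESeq2, without the low-count filter, or with either siCTRL library or siSTAU1 library 2 left out.

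The other members called lower were the enzymes PKM at -0.28, PFKM at -0.21, LDHA at -0.17, PGAM1 at -0.16, ALDOA at -0.16 and PFKP at -0.13 on the log2 scale, the main glucose transporter SLC2A1 at -0.18, the oxygen sensor EGLN1 at -0.29, the histone demethylase KDM3A at -0.36, the pyruvate dehydrogenase kinase PDK1 at -0.24 and the collagen prolyl hydroxylase subunit P4HA1 at -0.17. PFKL, the liver type of phosphofructokinase, rose by 0.18, the isomerase TPI1 by 0.13 and the second prolyl hydroxylase subunit P4HA2 by 0.40 on the log2 scale. Several of these small changes depended on the fit. PFKP was not called by DESeq2, without the low-count filter, with effective length or without siCTRL library 1 or 2 or siSTAU1 library 2. LDHA, ALDOA, TPI1 and SLC2A1 were not called without siCTRL library 1 or without siCTRL library 2. SLC2A1 was also not called with effective length, and TPI1 without siSTAU1 library 2. PDK1 was not called by DESeq2 or without siCTRL library 1 or siSTAU1 library 2. P4HA1 was not called by DESeq2 or without siCTRL library 1, and PFKL, PFKM and PGAM1 were not called without siCTRL library 2. Members not called were HK1, GAPDH, PGK1, ENO1, ENO2, PFKFB4, ADM, CA9, NDRG1, BNIP3 and ANKRD37, with log2 values between -0.45 in ANKRD37, which had only 1.51 ± 0.48 CPM with siSTAU1 and 2.05 ± 0.18 CPM with siCTRL (SD, n = 2 each), and 0.17 in NDRG1. With either siCTRL library left out the count of lower members was 12, without siCTRL library 2 only P4HA2 was called higher, and DESeq2 called 15 lower. ALDOC, PFKFB3, EGLN3, VEGFA, GPI, HK2 and BNIP3L remained called lower in each of those fits, and PFKFB3 was not called when the fit allowed for effective length (-0.31, edgeR adjusted p = 0.0894).

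**Figure D1:**
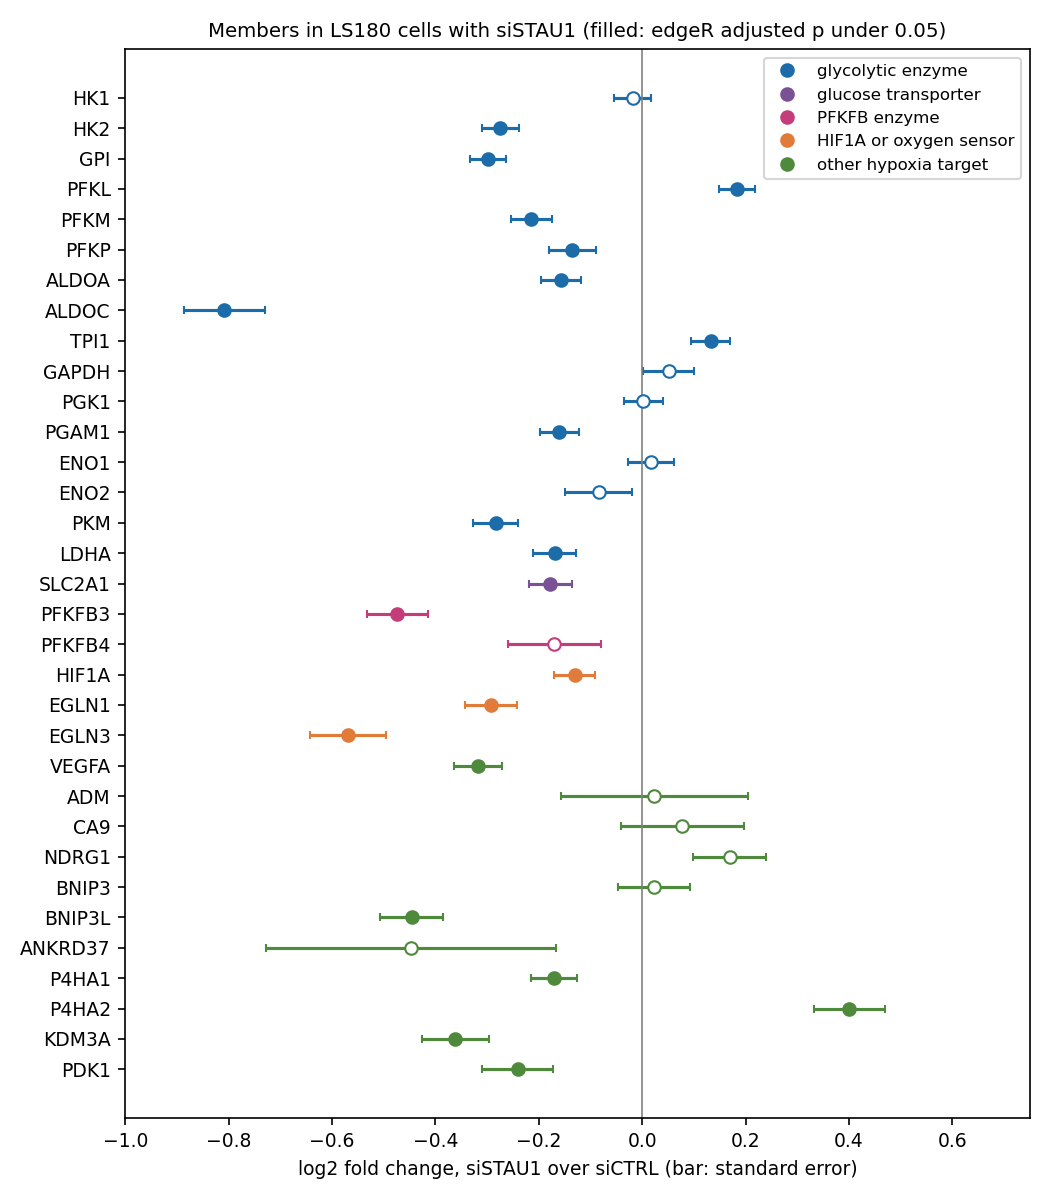
Log2 fold change of the 33 tested members in LS180 cells, siSTAU1 over siCTRL, with bars of 1 standard error; filled points passed an edgeR adjusted p of 0.05 and colours give the role. ALDOC at -0.81, EGLN3 at -0.57 and PFKFB3 at -0.47 lie furthest left, and P4HA2 at 0.40 lies furthest right.

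Genes of the same pathways outside the 34 were called in both directions with siSTAU1, against 23.0% of all tested genes each way. Among 20 tested other glycolysis genes 5 were higher and 8 lower, among 14 other genes of the HIF system 4 were higher and 4 lower, and among 24 further hypoxia targets 5 were higher and 8 lower, with medians of -0.04, 0.07 and -0.07 on the log2 scale. PFKFB2, a relative of PFKFB3, fell to 34.8 CPM in siSTAU1 libraries, against 56.7 CPM in siCTRL libraries (log2 fold change -0.70). STC2, a secreted glycoprotein induced by stress, fell to 31.2 CPM, against 53.8 CPM in siCTRL libraries (-0.79). HMOX1, haem oxygenase, rose to 23.5 CPM, against 13.1 CPM in siCTRL libraries (0.84). The other named genes were SLC16A1 at -0.29, PDHA1 at -0.41, MPC2 at 0.41, RBX1 at 0.44, CITED2 at 0.37, EP300 at -0.39, CREBBP at -0.37, BHLHE40 at -0.52 and DDIT4 at -0.36.

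After transcription was blocked, VEGFA, ADM, ANKRD37, EGLN3, PFKFB3, PFKFB4 and SLC2A1 fell in both lines, and no enzyme was called lower with TMM scaling. Of the 18 members other than enzymes, edgeR called 8 lower and 5 higher at 4 h in each line. Of all tested genes it called 23.7% lower and 26.2% higher in HCT116, and 31.1% and 26.6% in LS180. Because CPM is a share of what is left in the library, a higher value after the block marks an mRNA lost more slowly than the bulk. VEGFA in HCT116 had 25.9, 32.1 and 32.9 CPM at 0 h, 6.66, 6.52 and 7.12 CPM at 2 h and 5.65, 4.73 and 4.495 CPM at 4 h. VEGFA in LS180 had 81.7, 83.6 and 84.1 CPM at 0 h, 16.9, 18.5 and 18.9 CPM at 2 h and 23.6, 12.7 and 13.2 CPM at 4 h. The times 0 and 2 h were far apart in both lines, and most of the decrease had occurred by 2 h. The log2 fold change over 0 h was -2.16 ± 0.17 at 2 h and -2.61 ± 0.18 at 4 h in HCT116 (edgeR adjusted p = 1.35e-08 and 6.36e-10), and -2.20 ± 0.16 and -2.33 ± 0.16 in LS180 (edgeR adjusted p = 2.09e-09 and 5.21e-10). Without library 1 of LS180 at 4 h the last value was -2.55.

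ADM encodes adrenomedullin, a peptide that widens blood vessels. ADM in HCT116 had 12.2, 13.3 and 13.05 CPM at 0 h, 2.69, 2.03 and 2.62 CPM at 2 h and 2.955, 2.195 and 2.08 CPM at 4 h. In LS180 it had 4.41, 3.96 and 4.43 CPM at 0 h, 2.33, 1.76 and 2.05 CPM at 2 h and 2.38, 2.88 and 3.48 CPM at 4 h. The libraries at 2 and 4 h lay below all at 0 h in both lines, but the gap was narrower in LS180. The log2 fold changes were -2.39 at 2 h and -2.41 at 4 h in HCT116 and -1.06 at 2 h and -0.55 at 4 h in LS180, and without library 1 of LS180 at 4 h the last was -0.30 and no longer called (edgeR adjusted p = 0.10). ANKRD37, an ankyrin-repeat protein and HIF target, was expressed at a low level. ANKRD37 had 1.17, 1.41 and 1.34 CPM at 0 h, 0.638, 0.754 and 0.863 CPM at 2 h and 0.463, 0.316 and 0.213 CPM at 4 h in HCT116. It had 1.23, 1.09 and 1.005 CPM at 0 h, 0.476, 0.448 and 0.456 CPM at 2 h and 0.743, 0.464 and 0.479 CPM at 4 h in LS180. All later libraries were below those at 0 h, and all 4 changes were called in the main fit. The ANKRD37 calls in HCT116 at 2 h and in LS180 at 4 h were lost with effective length. The ADM call in LS180 at 4 h was lost with it too.

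PFKFB3 in HCT116 had 47.4, 44.3 and 43.05 CPM at 0 h, 34.5, 35.8 and 35.0 CPM at 2 h and 34.2, 36.5 and 33.8 CPM at 4 h. In LS180 it had 29.3, 31.6 and 28.9 CPM at 0 h, 19.6, 20.5 and 19.9 CPM at 2 h and 19.7, 19.1 and 19.7 CPM at 4 h. With TMM scaling PFKFB3 dropped by 2 h in both lines and stayed at that level at 4 h. When libraries were scaled to the mRNAs of ribosomal proteins, its log2 fold change was -0.58 at 2 h and -0.76 at 4 h in HCT116. In LS180 it was -0.82 and -1.17 with that scaling, so the level at 4 h depended on the scaling. The log2 fold changes were -0.36 ± 0.053 at 2 h and -0.37 ± 0.053 at 4 h in HCT116 (edgeR adjusted p = 4.18e-05 and 1.23e-05), and -0.58 ± 0.054 and -0.62 ± 0.054 in LS180 (edgeR adjusted p = 5.39e-08 and 1.22e-08). PFKFB4, its testis-type relative, had 14.8, 14.6 and 14.3 CPM at 0 h, 12.4, 11.9 and 12.4 CPM at 2 h and 10.96, 10.01 and 10.1 CPM at 4 h in HCT116. It had 9.505, 9.07 and 8.80 CPM at 0 h, 5.85, 6.74 and 6.63 CPM at 2 h and 5.20, 3.97 and 4.20 CPM at 4 h in LS180. With TMM scaling the PFKFB4 means, unlike those of PFKFB3, went on declining between 2 and 4 h. The log2 fold changes of PFKFB4 over 0 h were -0.49 in HCT116 and -1.03 in LS180 at 4 h. The step from 2 to 4 h itself was not tested.

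EGLN3 was scarce in HCT116, with 1.80, 2.05 and 1.56 CPM at 0 h, 1.06, 1.44 and 1.17 CPM at 2 h and 1.15, 1.25 and 1.07 CPM at 4 h. In LS180 it had 11.01, 11.8 and 12.55 CPM at 0 h, 7.45, 7.86 and 7.45 CPM at 2 h and 6.21, 5.95 and 6.095 CPM at 4 h. Every library at 2 or 4 h was below every library at 0 h of its line. The log2 fold changes were -0.56 ± 0.13 at 2 h and -0.65 ± 0.13 at 4 h in HCT116 (edgeR adjusted p = 0.00261 and 0.000339), and -0.64 ± 0.095 and -0.95 ± 0.097 in LS180 (edgeR adjusted p = 2.55e-05 and 9.51e-08). SLC2A1 in HCT116 had 181, 182 and 197 CPM at 0 h, 145, 161 and 160.0 CPM at 2 h and 139, 137 and 129 CPM at 4 h. It had 60.3, 62.7 and 62.4 CPM at 0 h, 48.8, 53.1 and 51.1 CPM at 2 h and 40.3, 42.7 and 45.15 CPM at 4 h in LS180. SLC2A1 declined by similar log2 amounts in both lines, -0.26 and -0.47 at 2 and 4 h in HCT116 and -0.28 and -0.53 in LS180, all called by edgeR. KDM3A was called lower in LS180 at -0.29 and -0.43, and in HCT116 its values of -0.06 and -0.19 were not called in the main fit. The LS180 call at 2 h was lost with RLE size factors, DESeq2, no low-count filter, a minimum of 1 CPM or without library 2 of 2 h. In HCT116 at 4 h KDM3A was called lower without the filter, with that minimum, with effective length and with ribosomal protein scaling. Its difference between the lines was not called at either time in any fit. EGLN1 was called lower at 4 h in HCT116, at -0.27, and in the main fit at no other time or line. In LS180 at 4 h it was also called with ribosomal protein scaling (-0.66) and with total library size. The same held with the HCT116 libraries numbered 1 left out and without LS180 library 2 of 0 h. RLE size factors and DESeq2 called EGLN1 in LS180 at 2 h, where its values over all fits ran from -0.20 to 0.16.

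HIF1A itself did not pass the test at either time in either line with TMM scaling. HIF1A in HCT116 had 229.8, 262 and 259.8 CPM at 0 h, 240.3, 283 and 279 CPM at 2 h and 246, 272 and 282 CPM at 4 h. In LS180 it had 127, 121.6 and 131 CPM at 0 h, 127, 120.3 and 124.5 CPM at 2 h and 121.7, 122.2 and 118 CPM at 4 h. The ranges of the 3 times overlapped in both lines. Its log2 fold change at 4 h was 0.09 ± 0.068 in HCT116 and -0.07 ± 0.069 in LS180 (edgeR adjusted p = 0.308 and 0.399). When libraries were scaled to the mRNAs of ribosomal proteins HIF1A was called lower at 4 h, at -0.31 in HCT116 and -0.62 in LS180 (edgeR adjusted p = 0.0292 and 0.000105), and with total library size it was called lower in LS180, at -0.27.

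**Figure D2:**
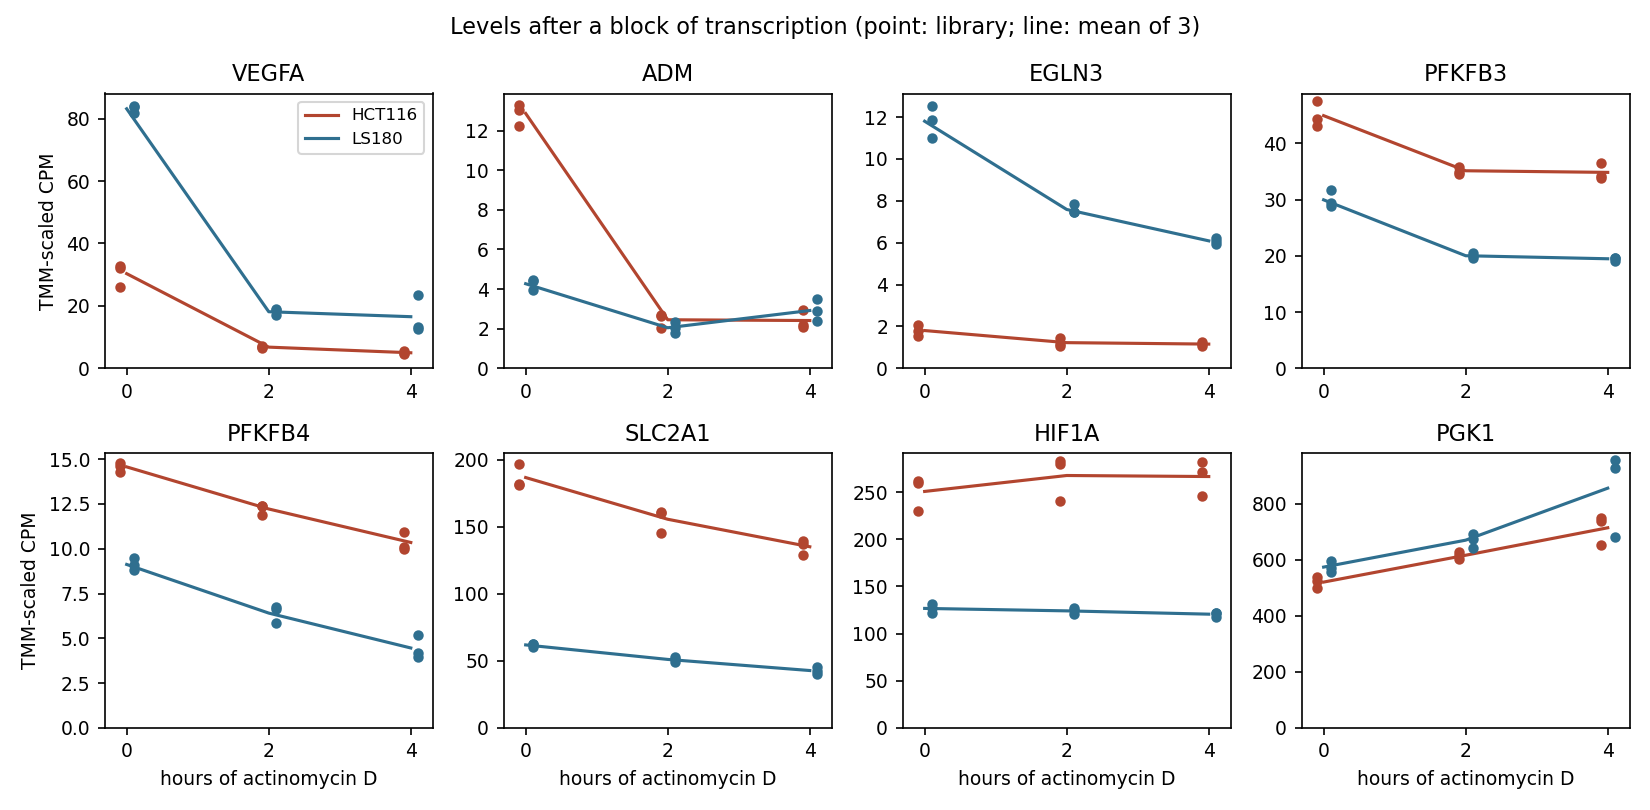
TMM-scaled CPM of 8 members at 0, 2 and 4 h of actinomycin D; each point is a library and lines join the means of 3 libraries, with HCT116 in red and LS180 in blue. VEGFA and ADM drop most by 2 h, PFKFB3, PFKFB4, EGLN3 and SLC2A1 less, and with this scaling HIF1A stays near its level at 0 h (called lower at 4 h with ribosomal protein scaling) and PGK1 is higher at 4 h, with 1 low LS180 library at 682 CPM.

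Among the 34 members, 11 were called higher and 7 lower at 2 h and 19 higher and 8 lower at 4 h in HCT116, against 13.8% higher and 17.1% lower of all 17256 tested genes at 2 h and 26.2% and 23.7% at 4 h. In LS180 the members were 10 higher and 8 lower at 2 h and 19 higher and 8 lower at 4 h, against 13.5% and 23.9% of all tested genes at 2 h and 26.6% and 31.1% at 4 h. The 16 glycolytic enzymes gave 5 higher and 0 lower at 2 h and 14 higher and 0 lower at 4 h in HCT116, and 6 and 0, then 14 and 0 in LS180. The higher counts at 2 h rested on single libraries: in HCT116 they were 5 or 6 without library 1 or 2 of 0 h or without library 2 or 3 of 2 h, and in LS180 they were 5 without library 3 of 0 h, 6 without library 3 of 2 h and 18 without library 2 of 2 h. By edgeR no enzyme was lower at an unadjusted p under 0.05 in any of the 4 comparisons, and DESeq2 called 0 lower, with 9 and 15 higher in HCT116 and 14 and 15 higher in LS180. The medians of the enzymes at 4 h were 0.35 in HCT116 and 0.38 in LS180 on the log2 scale, against 0.02 and 0.000 over all tested genes, and -0.14 and -0.17 over the other 18 members.

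The sign of the enzyme changes depended on the scaling. When libraries were scaled to the mRNAs of ribosomal proteins, which are known to be stable, 0 enzymes were called higher by edgeR at 4 h (0 at an unadjusted p under 0.05), and 1 was called lower in HCT116 and 5 in LS180. With that scaling edgeR called 0.643% of all tested genes higher and 42.5% lower in HCT116 at 4 h, and 0.713% and 62.2% in LS180. With that scaling the median of all tested genes at 4 h was -0.34 in HCT116 and -0.54 in LS180. The median of the enzymes at 4 h was then -0.05 in HCT116 and -0.18 in LS180, and that of the other members -0.53 and -0.73, of which edgeR called 11 of 18 and 13 of 18 lower and 0 higher, also 0 at an unadjusted p under 0.05, where most called genes were lower. VEGFA at 4 h in LS180 was -2.83 with that scaling, and PGK1 was 0.003.

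With TMM scaling the enzymes with the largest called values at 4 h were PFKM at 0.52 in HCT116 and PGK1, phosphoglycerate kinase, at 0.58 in LS180. PFKM, the muscle type of phosphofructokinase, had 127.5, 118 and 119 CPM at 0 h, 152, 135 and 133 CPM at 2 h and 177, 168 and 178 CPM at 4 h in HCT116. It had 88.2, 86.0 and 84.6 CPM at 0 h, 106, 103 and 105.5 CPM at 2 h and 113.5, 123 and 120.2 CPM at 4 h in LS180. GPI in HCT116 had 441, 456.5 and 484 CPM at 0 h, 516, 566 and 557.5 CPM at 2 h and 589, 606 and 594.5 CPM at 4 h. The times of PFKM and GPI did not overlap within a line on this scale; with ribosomal protein scaling PFKM at 4 h in LS180 was -0.09 and GPI was -0.03 in HCT116. HK2 was the enzyme with a negative value in all 4 comparisons, between -0.17 and -0.12, and none was called. PFKP in LS180, HK2 in both lines and LDHA in HCT116 were the enzymes not called at 4 h. Without library 1 of LS180 at 4 h, 15 enzymes were called higher, their median was 0.57 and PGK1 was at 0.85, and the other 18 members gave 7 higher and 7 lower.

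Several hypoxia targets outside glycolysis moved with the enzymes. P4HA2 in HCT116 had 27.3, 28.8 and 28.9 CPM at 0 h, 36.4, 39.1 and 38.7 CPM at 2 h and 38.4, 36.9 and 39.1 CPM at 4 h. In LS180 it had 48.0, 46.5 and 45.2 CPM at 0 h, 61.05, 60.8 and 59.6 CPM at 2 h and 65.35, 70.0 and 69.5 CPM at 4 h. With TMM scaling P4HA2 was higher at both times in both lines with no overlap, by 0.43 and 0.43 in HCT116 and 0.38 and 0.55 in LS180 on the log2 scale; with ribosomal protein scaling its value at 4 h in LS180 was -0.001. The mitophagy receptors BNIP3 and BNIP3L and the hydroxylase subunit P4HA1 were also called higher at both times in both lines with TMM scaling. At 4 h BNIP3 was at 0.44 in HCT116 and 0.46 in LS180, and with ribosomal protein scaling the LS180 value was -0.10. NDRG1, a stress-induced protein linked to differentiation, had 124, 122 and 127 CPM at 0 h, 152, 152 and 156.5 CPM at 2 h and 157, 131 and 138 CPM at 4 h in HCT116. All 6 later libraries lay above those at 0 h, with log2 fold changes of 0.30 at 2 h and 0.19 at 4 h that edgeR called (-0.21 at 4 h with ribosomal protein scaling). The call at 4 h was also lost without the low-count filter, with total library size and with only the groups compared. It was lost too with the HCT116 libraries numbered 1 left out and without library 2 of 0 h or library 1 of 4 h. In LS180 NDRG1 was not called in the main fit, but RLE size factors and DESeq2 called it at 2 and 4 h. CA9 was called higher in LS180 at 4 h at 0.31 and in HCT116 at 2 h at 0.80, where its counts were as low as 10 in a library at 0 h. The HCT116 call was lost with effective length, with ribosomal protein scaling, with only the groups compared, with the HCT116 libraries numbered 1 left out, and without library 1 or 2 of 0 h or library 2 or 3 of 2 h. PDK1 and SLC2A3 were not called in any of the 4 comparisons in the main fit. With ribosomal protein scaling PDK1 was called in all 4, at -0.37 in HCT116 and -0.36 in LS180 at 4 h. That scaling also called SLC2A3 in LS180 at 4 h. RLE size factors and DESeq2 called PDK1 in LS180 at 4 h, where its values over all fits ran from -0.36 to 0.41.

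Genes of the same pathways outside the 34 were called in both directions at 4 h, to be read against the 26.2% higher and 23.7% lower of all tested genes in HCT116 and the 26.6% and 31.1% in LS180. Of 19 tested other glycolysis genes, edgeR called 9 higher and 0 lower in HCT116 at 4 h (11 and 1 at an unadjusted p under 0.05, 13 and 0 by DESeq2) and 13 higher and 2 lower in LS180, and with ribosomal protein scaling 0 higher and 6 lower in HCT116 and 0 and 9 in LS180, where that scaling called 42.5% and 62.2% of all tested genes lower. Among 16 other genes of the HIF system 4 were higher and 7 lower in HCT116, and 3 and 7 in LS180. Among 27 further hypoxia targets 9 were higher and 12 lower in HCT116, and 7 and 15 in LS180. DDIT4, an inhibitor of mTOR signalling, fell to 5.60 CPM at 4 h in HCT116, against 74.7 CPM at 0 h, and to 2.93 CPM in LS180, against 99.9 CPM. BHLHE40, a transcriptional repressor, fell to 1.499 CPM in HCT116, against 10.6 CPM at 0 h, and to 1.31 CPM in LS180, against 18.2 CPM. Ubiquitin ligases that target the oxygen sensors also fell at 4 h: SIAH1 was at -2.56 in HCT116 and -3.80 in LS180, and SIAH2 at -1.34 and -3.18 on the log2 scale. CITED2, a competitor of HIF for its coactivator, was at -2.97 and -2.49, the coactivator EP300 at -0.98 and -1.47, and the lipid droplet protein HILPDA at -2.13 and -2.97. PDHA1, a subunit of pyruvate dehydrogenase, was at 0.55 in both lines, and LDHB at 0.39 in HCT116 and 0.49 in LS180 with TMM scaling; with ribosomal protein scaling LDHB was at -0.01 and -0.07.

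**Figure D3:**
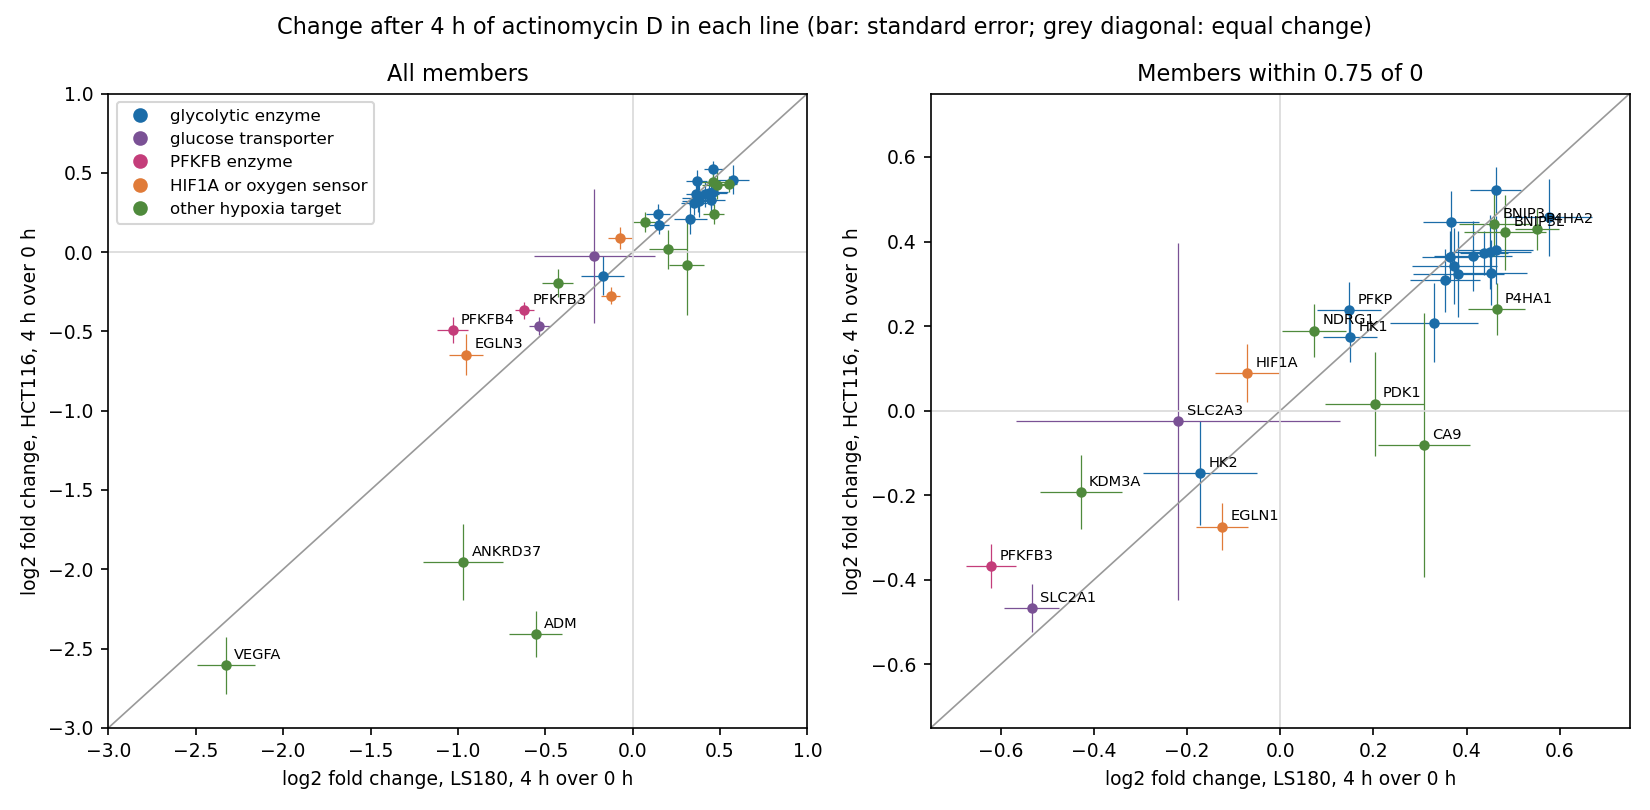
Log2 fold change of the 34 members after 4 h of actinomycin D, with HCT116 on the vertical axis and LS180 on the horizontal axis and bars of 1 standard error; the right panel enlarges the members within 0.75 of 0 in both lines. Most enzymes cluster near 0.4 in both lines with TMM scaling (below 0 with ribosomal protein scaling), VEGFA, ANKRD37 and ADM lie at the bottom, and ADM lies far below the diagonal of equal change.

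The change after the block differed between the lines in few of these genes. The difference of the log2 fold changes, HCT116 minus LS180, was called in 1 member at 2 h (0 higher and 1 lower by edgeR, 3 and 1 at an unadjusted p under 0.05, 0 and 1 by DESeq2), against 5.24% higher and 0.394% lower of all tested genes. At 4 h it was called in 3 members, 2 higher and 1 lower, against 12.3% and 1.33% of all tested genes. ADM declined further in HCT116, with a difference of -1.33 ± 0.21 at 2 h and -1.85 at 4 h (edgeR adjusted p = 0.000489 and 7.61e-06). Without library 1 of LS180 at 4 h the ADM difference at 4 h was -2.15. PFKFB4 declined less in HCT116 at 4 h, with a difference of 0.54 ± 0.12 (edgeR adjusted p = 0.00443). This call was lost when any 1 of the 3 HCT116 libraries at 4 h was left out (edgeR adjusted p = 0.0631 to 0.0863). It was also lost without the low-count filter and with effective length. PFKFB3 declined less in HCT116 at 4 h by 0.25 ± 0.075 (edgeR adjusted p = 0.0303). The PFKFB3 call was lost with DESeq2, RLE size factors, total library size, ribosomal protein scaling and only the groups compared. It was lost too without the low-count filter and with a minimum of 1 CPM, and kept with effective length and with the replicate block. Leaving out any of 8 single libraries also lost it, among them library 1 of LS180 at 4 h (difference 0.10, edgeR adjusted p = 0.401).

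By edgeR 0 enzymes differed in their change between the lines at either time, 0 also at an unadjusted p under 0.05, and DESeq2 called 0, with 2 at 2 h and 1 at 4 h at an unadjusted p under 0.05. Without library 1 of LS180 at 4 h, however, 11 members were lower at 4 h, 6 of them enzymes, and 1 was higher, and without any 1 of the HCT116 libraries at 4 h the lower count was 4 or 5. VEGFA differed by 0.04 ± 0.23 at 2 h and -0.28 ± 0.24 at 4 h, and the value at 4 h was -0.09 without library 1 of LS180 at 4 h, -0.43 and called without the low-count filter (edgeR adjusted p = 0.00865) and -0.96 and called with only that LS180 library at 4 h (edgeR adjusted p = 0.0013). EGLN3 differed by 0.08 ± 0.16 and 0.31 ± 0.16, and SLC2A1 by 0.01 ± 0.081 and 0.07 ± 0.082, and the standard errors of these 3 genes leave room for differences of a size similar to those called in the PFKFB genes. Across the 34 members the changes of the lines had a Pearson r of 0.90 at 2 h and 0.86 at 4 h, against 0.59 and 0.69 across all tested genes; genes are not independent replicates, and the members share libraries and scaling.

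Before actinomycin D the lines differed widely. In HCT116 over LS180 at 0 h, 15 members were higher, 14 lower and 5 not called, against 33.7% higher and 42.6% lower of all tested genes. Enzymes were 8 higher and 5 lower, and the other members 7 higher and 9 lower. CA9, a carbonic anhydrase at the cell surface and a common marker of hypoxia, had 0.195, 0.178 and 0.316 CPM in HCT116, against 15.5, 17.5 and 16.4 CPM in LS180, a log2 fold change of -6.18 ± 0.16 (edgeR adjusted p = 8.84e-17). NDRG1 had 124, 122 and 127 CPM in HCT116, against 16.1, 14.8 and 15.1 CPM in LS180, with a log2 fold change of 3.02 ± 0.069 (edgeR adjusted p = 1.28e-17). ENO2, the neuronal type of enolase, had 3.96 to 4.24 CPM in HCT116, against 27.0 to 29.6 CPM in LS180 (log2 fold change -2.81). For these 3 genes the lines were separated by much more than the spread of the libraries.

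The hypoxia regulators were not uniformly higher in either line. EGLN3 was lower in HCT116, at 1.80, 2.05 and 1.56 CPM, against 11.01, 11.8 and 12.55 CPM in LS180 (log2 fold change -2.71), as were VEGFA at -1.46, PDK1 at -1.74, P4HA1 at -1.21 and the scarce transporter SLC2A3 at -1.32. HIF1A at 0.98, ADM at 1.59, SLC2A1 at 1.59, PFKFB3 at 0.59, PFKFB4 at 0.68 and EGLN1 at 0.31 were higher in HCT116. Of the enzymes, PFKP at 2.22, ENO1 at 0.62 and PFKM at 0.49 were furthest above LS180, and ENO2, PFKL at -1.04 and ALDOC at -0.85 furthest below. BNIP3 was called lower in HCT116 at -0.22, but was at 0.05 with ribosomal protein scaling. Members not called were GPI, PGK1, LDHA, ANKRD37 and KDM3A. In the lists outside the 34, the HIF subunit EPAS1 was at 1.88, HMOX1 at 2.49, SLC16A3, a lactate exporter, at 1.89 and the carbonic anhydrase CA12 at -3.03.

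**Figure D4:**
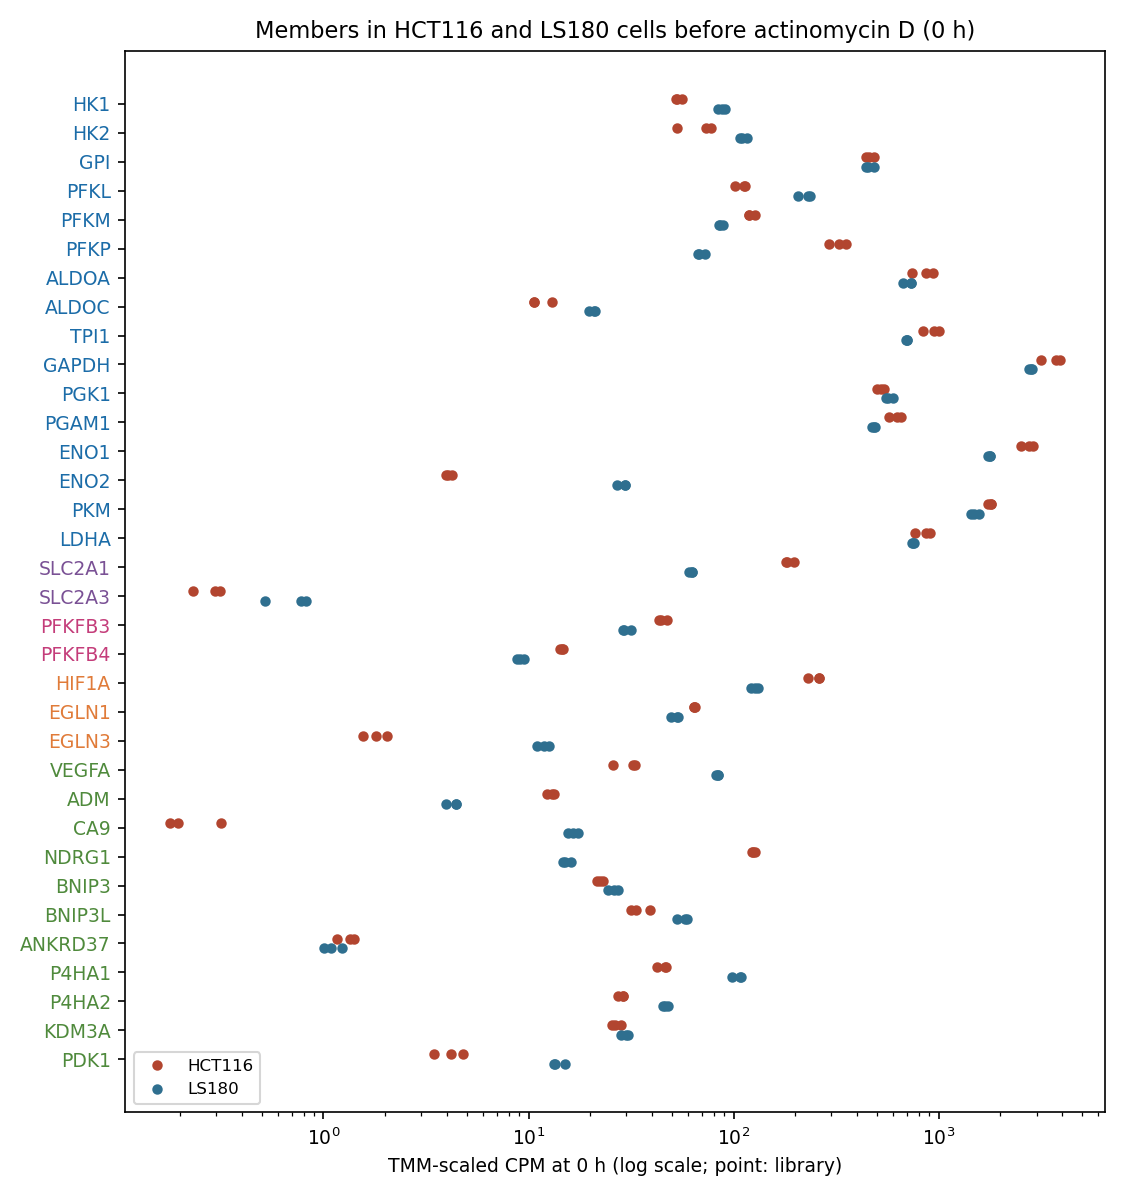
TMM-scaled CPM of each member at 0 h, on a log axis, with 3 HCT116 libraries in red above 3 LS180 libraries in blue in each row; label colours give the role. CA9, ENO2 and EGLN3 are far lower and NDRG1, PFKP and SLC2A1 far higher in HCT116, while GPI and PGK1 lie close together.

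Levels between genes were compared as CPM per kb of effective length. At 0 h in LS180 the most abundant members were GAPDH at 2309 ± 42.6, ENO1 at 1117 ± 16.3, ALDOA at 745 ± 40.5 and PKM at 714 ± 30.8 CPM per kb (SD, n = 3). ALDOA and PKM did not differ by more than their spread. The regulators were far scarcer, with HIF1A at 45.2, VEGFA at 32.5, SLC2A1 at 24.5, PFKFB3 at 8.71 and EGLN3 at 5.16 CPM per kb in LS180 at 0 h, and VEGFA and PFKM lay within their spread of each other.

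Of the families of paralogs compared, only the phosphofructokinases had a different main member in the lines at the mRNA level. HK1, ALDOA, ENO1, SLC2A1, PFKFB3, EGLN1 and P4HA1 were the main members of their families in both lines at 0 h. In HCT116 at 0 h PFKP gave 56.7 to 63.1% of summed phosphofructokinase CPM per kb, against 18.95 to 20.8% in LS180. PFKL gave 16.9 to 19.7% in HCT116 and 56.1 to 59.6% in LS180, so the main isoenzyme differed between the lines without overlap. EGLN1 gave 95.3 to 96.3% of the summed CPM per kb of EGLN1 and EGLN3 in HCT116, against 71.7 to 75.6% in LS180. The PFKFB3 share of PFKFB3 and PFKFB4 was 71.8 to 74.6% in HCT116 and 72.2 to 76.3% in LS180, which overlapped. With siSTAU1 the PFKL share was 55.6 to 59.5%, against 47.9 to 50.03% with siCTRL, and the P4HA2 share of P4HA1 and P4HA2 was 45.7 to 49.2%, against 36.8 to 37.8%. These shares are descriptions and were not tested.

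**Figure D5:**
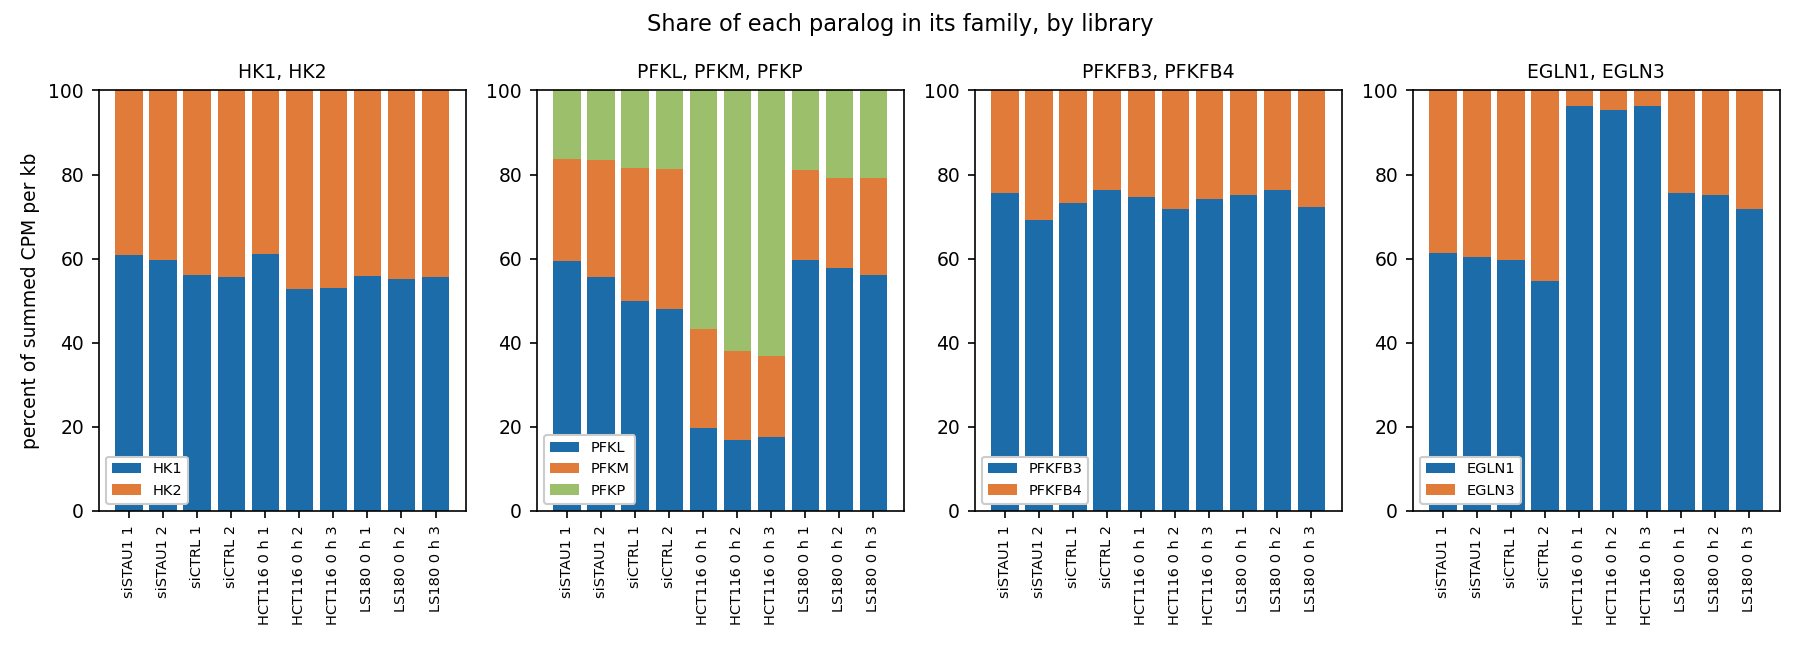
Share of each paralog in the summed CPM per kb of its family, 1 bar per library, for siSTAU1, siCTRL, HCT116 at 0 h and LS180 at 0 h. PFKP takes over 56% in the 3 HCT116 libraries and PFKL over 56% in the 3 LS180 libraries of the same experiment, while the PFKFB3 share is close to 74% in both.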

How the data were processed

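RNA of 22 libraries was used: 4 from the siRNA experiment and 18 from the actinomycin D experiment. The authors deposited RSEM expected counts and an effective length per gene and library; per the submitters' processing notes the tools were cutadapt, STAR 2.7 and RSEM 1.3.1, with hg38 named for the siRNA experiment and hg19 for actinomycin D. The annotation release and strand setting were not given in the sources used here, so antisense reads could not be told apart (their share was at most 0.28% of a member). Expected counts were rounded and each experiment fitted alone in edgeR 4.0.16 (R 4.3.3; filterByExpr, TMM, two-sided quasi-likelihood test, Benjamini-Hochberg over 14073 or 17256 genes, threshold 0.05), and the procedure was tested on simulated data. Standard errors were taken from the fold change and the F statistic. Pseudogenes of the enzymes held at most 1.11% of the counts of their parent gene. Coordinates and 3′ untranslated regions came from GENCODE 29 on GRCh38, matched on gene ID.

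Per-library values were given for VEGFA, EGLN3, PFKFB3, HIF1A and, in each of 8 comparisons, the members ranked in the first 6 by adjusted p; wider lists were named by up to 4 genes averaging at least 5 CPM; PGK1, GPI and PFKM values were also shown. The members, lists and rules were chosen with earlier results of these data known. Alternatives were DESeq2 1.42.0, RLE, total library size or ribosomal protein scaling, other filters, effective length, a replicate block, fits to only the groups compared and left-out libraries. Figures used matplotlib 3.10.9.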

Additional observations from a re-analysis of the deposited data

Results flagged for a closer look

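The change after the block of transcription differed between HCT116 and LS180, by the test of the difference itself, in 3 members and in 9 genes named from the wider pathway lists, of which up to 4 per list and time averaging at least 5 CPM were named; in all, edgeR called 2 of 16 other HIF system genes and 7 of 27 further hypoxia targets at 2 h and 5 and 9 of them at 4 h; each value is the log2 fold change over 0 h in HCT116 minus that in LS180, and each passed an edgeR adjusted p of 0.05. Among the members ADM was at -1.33 at 2 h and -1.85 at 4 h, PFKFB3 at 0.25 at 4 h and PFKFB4 at 0.54 at 4 h. The PFKFB3 and PFKFB4 calls were lost in several other fits, as given with their values above. Among other genes of the HIF system SIAH1 was at 0.92 at 2 h and 1.24 at 4 h, SIAH2 at 1.27 and 1.83, HIF1AN, which encodes the HIF asparaginyl hydroxylase, at 0.73 at 4 h and EP300 at 0.49 at 4 h. Among further hypoxia targets DDIT4 was at 1.38 at 2 h and 1.34 at 4 h, HILPDA at 0.95 and 0.85, STC2 at 1.11 and 1.32, BHLHE40 at 0.85 at 2 h and HMOX1 at 0.91 at 4 h. No cause was tested.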

How the results depend on the processing

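The siSTAU1 counts, the HCT116 over LS180 counts at 0 h and the counts of lower members at 2 h stayed within 1.5 times of the reported ones under every alternative other than leaving out single libraries. The number of members called higher in LS180 at 2 h moved to 21 with RLE size factors, 21 with DESeq2, 20 without the low-count filter, 21 with a minimum of 1 CPM, 17 with only the groups compared and 22 with LS180 4 h libraries 2 and 3 left out. In HCT116 at 2 h it moved to 7 with effective length, 6 with total library size and 7 with only the groups compared, and in LS180 at 4 h to 12 with total library size. Scaling to ribosomal protein genes gave 0 higher members in both lines at both times, and 18 lower in LS180 at 4 h. For the line difference at 2 h, 1 member was higher with only the groups compared and 1 with the HCT116 libraries numbered 1 left out. At 4 h the higher count was 1 with RLE size factors, DESeq2, the 1 CPM minimum, effective length, total library size, ribosomal protein scaling or only the groups compared, and 0 without the filter or with LS180 4 h libraries 2 and 3 left out. The lower count at 4 h was 4 with RLE size factors, 5 with DESeq2, 6 without the filter, 6 with the 1 CPM minimum, 2 with the HCT116 libraries numbered 1 left out and 4 with LS180 4 h libraries 2 and 3 left out. The cause of these moves was not tested. Leaving out single libraries gave 1 to 3 higher and 12 to 19 lower members with siSTAU1; 5 to 9 and 6 to 8 in HCT116 at 2 h, 14 to 19 and 8 to 9 at 4 h; 5 to 18 and 7 to 8 in LS180 at 2 h, 17 to 22 and 7 to 9 at 4 h; 14 to 16 and 13 to 14 for HCT116 over LS180; and 0 to 1 and 1 to 1 at 2 h, 0 to 2 and 1 to 11 at 4 h for the line difference. Single genes called with TMM scaling, or only with ribosomal protein scaling, changed sign with ribosomal protein scaling as follows, on the log2 scale. They were PKM -0.021, TPI1 -0.0057, P4HA1 -0.028, PFKM -0.027, GPD1L -0.069 and PDHB -0.054 in HCT116 at 2 h. They were PFKP -0.16, PKM -0.073, ENO1 -0.094, HIF1A -0.31, NDRG1 -0.21, GPI -0.027, ALDOC -0.069, GAPDH -0.029, TPI1 -0.038, LDHB -0.014, P4HA1 -0.16, PFKL -0.033, ALDOA -0.063, PDK1 -0.37, HK1 -0.23, PDHB -0.13 and PGAM1 -0.022 in HCT116 at 4 h. They were PKM -0.0047, TPI1 -0.011, ENO2 -0.031, P4HA1 -0.0039 and BNIP3 -0.0075 in LS180 at 2 h. They were MPC1 -0.0023, PFKP -0.40, PKM -0.12, P4HA2 -0.0012, ENO1 -0.21, NDRG1 -0.48, BNIP3L -0.075, GPI -0.11, CA9 -0.25, ALDOC -0.18, GAPDH -0.11, TPI1 -0.15, ENO2 -0.19, LDHB -0.070, P4HA1 -0.091, LDHA -0.23, PFKL -0.18, MPC2 -0.068, ALDOA -0.18, PDK1 -0.36, PFKM -0.090, HK1 -0.40, PGAM1 -0.10 and BNIP3 -0.10 in LS180 at 4 h. BNIP3 in HCT116 over LS180 was 0.050 with that scaling, and HK1 in LS180 at 4 h was -0.053 with total library size, under which the median of all tested genes was -0.20. Deviations of same-numbered libraries had a correlation of -0.06 in the siRNA experiment, between -0.0916 and 0.0748 within LS180 and between 0.0849 and 0.325 within HCT116. Across times, HCT116 libraries numbered 1 correlated at 0.263 to 0.325 with each other and at -0.225 to -0.126 with the other HCT116 libraries. The number was not taken as a pairing in the main fits, so this shared deviation was not modelled there. With the replicate number as a block, siSTAU1 gave 4 higher and 19 lower members. HCT116 gave 15 and 7 at 2 h (11 and 7 without the block) and 20 and 8 at 4 h, and LS180 15 and 8 at 2 h and 20 and 8 at 4 h. Members under 5 CPM, such as ANKRD37, SLC2A3 and CA9 in HCT116, rest on few counts, and small changes in them were not detectable at this depth.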
